A study of Mus musculus with 15 samples.

Results

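The comparison of pancreatic beta cells with pancreatic alpha cells used 9 of the 15 RNA samples of the series, 5 of alpha cells (replicates 1 to 5) and 4 of beta cells (replicates 1 to 4). Both cell types were sorted from dispersed islets of Glu-Venus mice on a C57BL/6 background, which express the yellow fluorophore Venus under the proglucagon (Gcg) promoter. Alpha cells were the Venus-positive cells. Beta cells were Venus-negative cells with high scatter and high autofluorescence, so no reporter marked them, and Gcg itself was the basis of the alpha cell sort. No treatment was given, the labels give no age or sex, and per the methods each sample was sorted from the pooled islets of several mice, so that the spread between replicates is a spread between pools. The remaining 6 samples, delta cells from Sst-Cre/Rosa26EYFP mice, entered the fit only to help estimate the spread. A gene was compared where its mean exceeded 1 FPKM (fragments scaled to transcript length and to a total per library) in alpha or in beta cells, which was the case for 13254 of the 38283 genes in the table.

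Alpha cells secrete glucagon, which raises blood glucose, and beta cells secrete insulin, which lowers it. Both arise from common endocrine progenitors and store their peptides in dense-core granules released by calcium entry, but they respond in opposite ways to glucose. Beta cells take up and phosphorylate glucose, raise ATP, close ATP-sensitive potassium channels and depolarise. Circulating peptides, neurotransmitters and nutrients act on both cell types through G-protein coupled receptors (GPCRs).

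The upstream regions of hormone and glucose-sensing genes are shown because alpha and beta samples did not overlap for any of the 5 genes. Each window is the 250 bases before the gene start from RefSeq (GRCm38.p6), 5′ to 3′ on the strand of the gene. Capitals mark TAAT on either strand (TAAT or ATTA), the core of many homeodomain sites such as those of Pdx1 and Nkx6-1, and TGCTGAC or GTCAGCA, the half-site of large Maf factors such as Mafa. The windows lie at chr19:52264047-52264296 on the plus strand (Ins1), chr6:142298175-142298424 on the plus strand (Iapp), chr3:28697653-28697902 on the plus strand (Slc2a2), chr2:62483654-62483903 on the minus strand (Gcg) and chr11:102101320-102101569 on the minus strand (Ppy).
Ins1: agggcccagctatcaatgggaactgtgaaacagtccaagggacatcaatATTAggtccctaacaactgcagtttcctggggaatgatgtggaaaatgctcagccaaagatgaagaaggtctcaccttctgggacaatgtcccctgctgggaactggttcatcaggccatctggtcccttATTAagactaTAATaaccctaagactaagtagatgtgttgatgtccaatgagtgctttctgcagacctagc
Iapp: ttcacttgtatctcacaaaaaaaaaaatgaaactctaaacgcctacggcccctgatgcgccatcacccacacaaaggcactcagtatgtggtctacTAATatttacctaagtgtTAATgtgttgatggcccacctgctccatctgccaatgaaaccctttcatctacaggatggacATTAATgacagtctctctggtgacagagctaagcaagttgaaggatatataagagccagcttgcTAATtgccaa
Slc2a2: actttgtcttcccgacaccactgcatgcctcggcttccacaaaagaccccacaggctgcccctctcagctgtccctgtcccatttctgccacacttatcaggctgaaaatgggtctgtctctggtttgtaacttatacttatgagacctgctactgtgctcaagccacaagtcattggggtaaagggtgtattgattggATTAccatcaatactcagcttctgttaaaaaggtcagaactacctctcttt
Gcg: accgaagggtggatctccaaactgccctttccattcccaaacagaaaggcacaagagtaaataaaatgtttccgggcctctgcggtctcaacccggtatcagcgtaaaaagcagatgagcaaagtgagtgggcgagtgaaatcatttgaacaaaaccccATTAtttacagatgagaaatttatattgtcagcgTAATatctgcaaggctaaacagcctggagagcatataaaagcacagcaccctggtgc
Ppy: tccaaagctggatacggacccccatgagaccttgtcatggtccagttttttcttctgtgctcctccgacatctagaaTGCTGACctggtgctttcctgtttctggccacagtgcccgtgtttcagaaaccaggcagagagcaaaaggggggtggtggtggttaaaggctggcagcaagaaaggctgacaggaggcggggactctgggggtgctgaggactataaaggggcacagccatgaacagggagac

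TAAT or ATTA occurred 3 times upstream of Ins1, 5 times upstream of Iapp, with the matches overlapping at 1 place, once upstream of Slc2a2 and 2 times upstream of Gcg. It did not occur upstream of Ppy, nor in either of the 2 windows held for Pyy, whose gene lies beside Ppy on chromosome 11. TGCTGAC was found in the Ppy window alone of those shown. Of 32851 windows of this length, 54.9% held TAAT and 3.81% held TGCTGAC on either strand. Among windows of genes higher in beta cells (268 of 421 matched by symbol) 43.4% held TAAT and 4.7% TGCTGAC, and among those of genes lower in beta cells (487 of 711 matched) the shares were 43.8% and 3.48%. For all genes tested they were 39.4% and 3.05%. A match is only a run of letters and does not show that a factor bound there.

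The hormones checked the labels. Gcg (chromosome 2, chr2:62474530-62483650 in GENCODE M21, GRCm38) was at 211812, 344947, 333564, 184426 and 290635 FPKM in alpha replicates 1 to 5, and at 261, 1817, 166 and 299 FPKM in beta replicates 1 to 4. Ins1 (chr19:52264297-52265476) was at 3583, 1033, 2208, 1594 and 1710 FPKM in alpha cells and 48702, 109599, 136984 and 26230 FPKM in beta cells. Ins2 (chr7:142678656-142743381) was at 9094, 2634, 5131, 5310 and 5502 FPKM in alpha cells and 121664, 329181, 638871 and 91248 FPKM in beta cells. The groups did not overlap for any of these genes. Mean Gcg in beta cells was 0.233% of its mean in alpha cells, and mean Ins1 and Ins2 in alpha cells were 2.52% and 1.87% of theirs in beta cells. Mean Sst, the somatostatin gene, was 0.992% of its delta cell level in alpha cells and 0.101% in beta cells.

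Some libraries stood apart. Ribosomal protein genes, 82 in all, summed to 73329, 131897, 140956, 26179 and 38754 FPKM in alpha replicates 1 to 5 and 10207, 76250, 7911 and 13810 in beta replicates 1 to 4. Beta replicate 2 lay far above the other beta samples, and alpha replicates 4 and 5 lay below the other alpha samples. Median-ratio size factors, computed from the FPKM themselves, ranged from 0.776 to 1.27 in alpha cells and from 0.46 (beta replicate 3) to 1.76 (beta replicate 2) in beta cells. Xist was high in alpha replicates 1 to 3 and beta replicates 1 and 2, and the Y-linked Eif2s3y in alpha replicates 4 and 5 and beta replicates 3 and 4, so female and male pools occurred in both cell types. Of the markers of other pancreatic cells, the summed level of 10 acinar genes was 9.63 to 95.9 FPKM in alpha and 0.0283 to 13.7 FPKM in beta cells, highest in alpha replicate 3. Amy2b stayed below 1 FPKM in all 9 samples. The sum of 6 ductal genes was 25.4 to 172 FPKM in alpha and 8.56 to 24.7 FPKM in beta cells, led by Spp1 in all alpha samples and by Spp1 or Krt7 in beta samples, while Sox9 and Cftr were at or near 0. The sum of 9 leukocyte genes was 8.63 to 27.8 FPKM in alpha and 3.79 to 26.4 FPKM in beta cells, led by C1qa except in beta replicate 4, with Ptprc, Emr1 and Cd3e at or near 0 and the B cell gene Cd79a called higher in beta cells (0 to 0.776 FPKM in alpha cells and 2.35 to 4.41 in beta cells). The collagen gene Col1a2, of fibroblasts, was called lower (0.848 to 3.79 FPKM in alpha cells and 0 to 0.00687 in beta cells), with Col1a1 listed at 0 in all 9 samples. The sum of 7 endothelial genes came to at most 3.38 FPKM in any sample. The part of these cells in the differences below was not tested. The number of reads behind each sample is unknown, and no limit of detection is given. The steps between low values implied a scaling total of about 7480000 reads in alpha replicate 2 and 25800000 reads in alpha replicate 5. In alpha replicate 5 the steps passed the limit set for them only narrowly. Such a total need not hold all reads of a library.

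Of the 13254 genes, 1132 (8.54%) differed between beta and alpha cells at an adjusted p under 0.05 (limma on log2(FPKM + 1), Benjamini-Hochberg). There were 421 genes (3.18%) higher and 711 (5.36%) lower in beta cells. In 1136 genes (8.57%) no alpha sample overlapped a beta sample, 429 (3.24%) with beta cells higher and 707 (5.33%) with beta cells lower. The median difference over all genes was -0.166, and 43.5% of genes lay above 0. Dividing the FPKM by the size factors moved that median to 0.00526 and gave 2130 calls, 1115 (8.41%) higher and 1015 (7.66%) lower, so that the share of higher calls went from 37.2% to 52.3%. All 421 higher calls and 673 of the 711 lower calls were kept. Leaving out 1 sample gave between 650 calls (without beta replicate 4) and 1743 (without beta replicate 2). Without alpha replicate 2 there were 718 calls and without beta replicate 1 there were 708. In all, 524 calls (209 higher, 315 lower) were kept whichever of the 9 samples was left out. Differences below are beta minus alpha on the log2(FPKM + 1) scale, ± SE, and understate the change of genes with low values. Every gene named below as higher or lower kept its call whichever sample was left out, unless the text says otherwise. A gene near 0 in 1 cell type was tested only where the other cell type passed the limit, which shapes the counts and medians of gene groups.

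**Figure D1:**
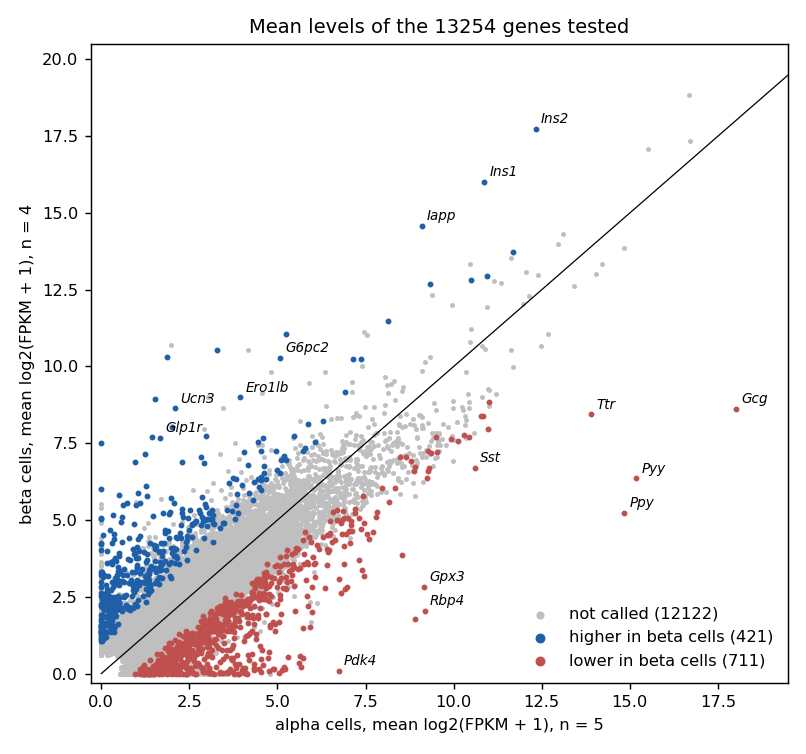
Mean log2(FPKM + 1) of each of the 13254 genes in alpha cells (horizontal axis, n = 5) against beta cells (vertical axis, n = 4), with the line of equal levels. Blue points are the 421 genes called higher and red points the 711 called lower in beta cells. Gcg, Ppy, Pyy, Rbp4, Pdk4 and Gpx3 lie far below the line, and Ins1, Ins2 and Iapp far above it.

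Of 14 hormone and peptide genes tested, 5 were higher and 4 lower in beta cells, and all 9 kept the call whichever sample was left out. Iapp encodes amylin, which is co-released with insulin. It was at 808, 908, 1020, 194 and 325 FPKM in alpha replicates 1 to 5 and at 10831, 118008, 12747 and 22217 FPKM in beta replicates 1 to 4 (log2 difference 5.49 ± 0.73, adjusted p = 1.1e-04). Beta replicate 2 held the highest value and every beta sample exceeded every alpha sample. Ucn3 encodes urocortin 3, a peptide of mature beta cells that acts on delta cells. It was at 7.26, 1.08, 1.29, 5.45 and 4.36 FPKM in alpha cells and 256, 690.2, 292 and 477 FPKM in beta cells (log2 difference 6.55 ± 0.46, adjusted p = 1.9e-07). The differences of Ins1 and Ins2 were 5.15 ± 0.54 (adjusted p = 9.9e-06) and 5.42 ± 0.56 (adjusted p = 8.5e-06). Pdyn, which encodes the opioid precursor prodynorphin, was lower in level but also higher in beta cells, at 0.315 to 1.76 FPKM in alpha cells and 4.7 to 47.3 in beta cells (log2 difference 2.99 ± 0.65, adjusted p = 0.0089).

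The peptides lower in beta cells were Gcg, Ppy, Pyy and Sst. Ppy, the pancreatic polypeptide gene, was at 28751, 41392, 39211, 25036 and 17728 FPKM in alpha cells and at 34.9, 98.1, 30.3 and 16.9 FPKM in beta cells (log2 difference -9.59 ± 0.58, adjusted p = 5.6e-08). Pyy, which encodes peptide YY, was at 34790, 44159, 31188, 32380 and 46280 FPKM in alpha cells and 63.4, 185, 80.2 and 46 FPKM in beta cells (log2 difference -8.82 ± 0.47, adjusted p = 1.4e-08). Gcg had a difference of -9.40 ± 0.62 (adjusted p = 1.2e-07), which only checks the sort. Sst was at 1177, 1789, 2427, 1139 and 1564 FPKM in alpha cells and 89.8, 461, 37.9 and 71.2 FPKM in beta cells, a difference of -3.90 ± 0.62 (adjusted p = 6.8e-04). Fewer cells of a type and less RNA per cell cannot be told apart in such bulk samples, and Ppy and Sst also mark PP and delta cells. Cck, Gast, Igf2, Npy and Nucb2 were not called.

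Of 5 carriers and enzymes of retinoids and thyroid hormone tested, 2 were lower in beta cells. Rbp4 encodes retinol-binding protein 4 and was at 591, 1094, 918, 266 and 405 FPKM in alpha cells against 1.23, 11.9, 0.706 and 5.01 FPKM in beta cells (log2 difference -7.12 ± 0.64, adjusted p = 2.1e-06). Ttr encodes transthyretin, which carries thyroxine and binds Rbp4 in plasma, and was at 14071, 18658, 16366, 10428 and 18704 FPKM in alpha cells against 187, 1186, 139 and 463 FPKM in beta cells (log2 difference -5.46 ± 0.56, adjusted p = 7.8e-06). Mean Rbp4 in alpha cells was 45.9% of that in delta cells, where the share for Sst was 0.992%. The other 3, Aldh1a3, Rarres2 and Rdh10, were not called.

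**Figure D2:**
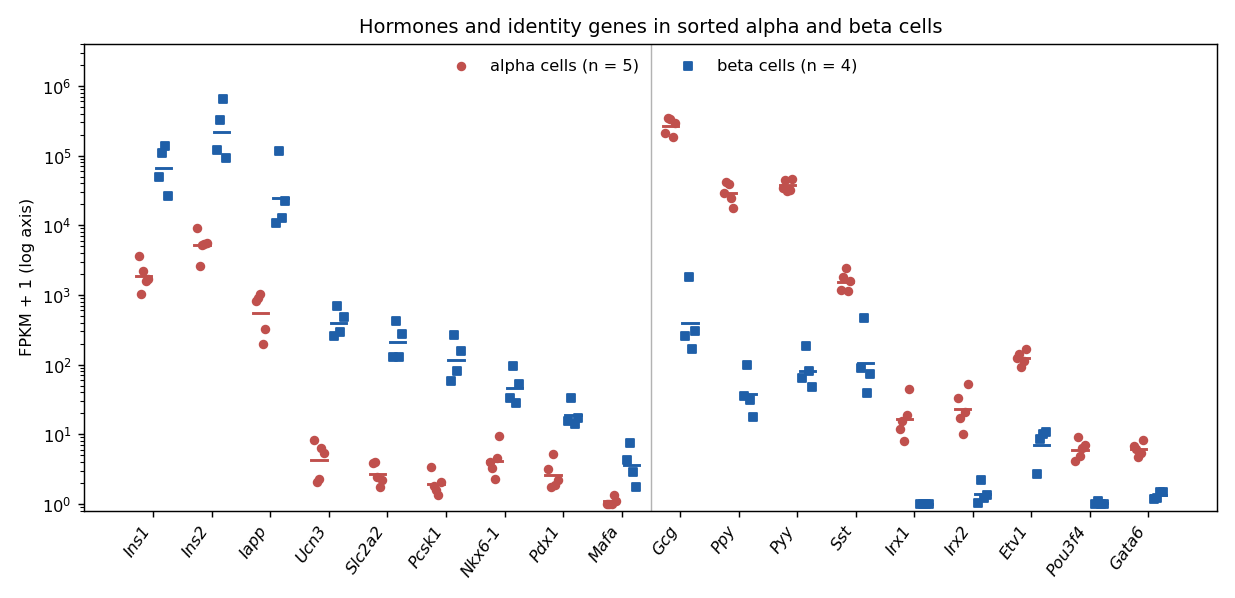
FPKM + 1 (log axis) of 18 hormone and identity genes in each sample, with red circles for alpha cells (n = 5), blue squares for beta cells (n = 4) and bars at the means on the log scale. The 9 genes left of the vertical line were higher and the 9 right of it lower in beta cells, and no alpha and beta samples overlap.

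Of 6 beta lineage factors tested, 4 were higher and none lower in beta cells. Nkx6-1, which maintains beta cell identity, was at 3.01, 2.32, 1.28, 3.55 and 8.37 FPKM in alpha cells and 32.4, 95.2, 26.8 and 51.2 FPKM in beta cells (log2 difference 3.47 ± 0.48, adjusted p = 1.7e-04). Pdx1, a regulator of the insulin gene, was at 2.16, 0.78, 4.14, 0.858 and 1.23 FPKM in alpha cells and 14.5, 31.9, 13.2 and 16.3 FPKM in beta cells (log2 difference 2.85 ± 0.39, adjusted p = 1.5e-04). Mafa, which activates insulin transcription, was low in level at 0 to 0.358 FPKM in alpha cells and 0.743 to 6.56 in beta cells (log2 difference 1.72 ± 0.36, adjusted p = 0.0073). Mnx1 was also called (log2 difference 1.21 ± 0.30, adjusted p = 0.02), but not without beta replicate 4. Bhlhe41 and Glis3 were not called. The median difference of the 6 was 1.47, against -0.166 for all genes.

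Of 13 alpha lineage factors, 8 were lower and none higher in beta cells, all 8 kept the call whichever sample was left out, and the median difference was -2.56. Without alpha replicate 4 or alpha replicate 5, 1 factor was called higher. The Iroquois factors Irx1 and Irx2 were at 7.07 to 43.7 and 9.01 to 52.2 FPKM in alpha cells, and at most 0.00931 and 1.22 FPKM in beta cells (log2 differences -4.04 ± 0.41 and -4.04 ± 0.47). The POU factor Pou3f4 was at 3.1, 8.15, 3.86, 5.27 and 5.92 FPKM in alpha cells and 0, 0.0913, 0 and 0 FPKM in beta cells (log2 difference -2.56 ± 0.28, adjusted p = 1.5e-05). Etv1, an ETS factor, was at 90.1 to 166 FPKM in alpha cells and still at 1.68 to 9.83 FPKM in beta cells (log2 difference -4.14 ± 0.42, adjusted p = 7.1e-06). Gata6, of the GATA family, was lower as well (3.71 to 7.32 FPKM in alpha cells and 0.173 to 0.493 in beta cells, log2 difference -2.22 ± 0.30, adjusted p = 1.5e-04). Foxp1, Foxp2, Peg3, Sall4 and Tshz1 were not called.

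The count for factors that endocrine cells share depended on the samples fitted. None of 18 pan-endocrine, HNF and FOXA factors passed the test, with a median difference of -0.406, and after median-ratio scaling 1 was higher and 2 were lower. Leaving out 1 sample gave at most 3 calls, without beta replicate 2. In the fit of the samples with a ribosomal protein sum below 50000 FPKM, 6 were lower, among them Foxa2, Isl1, Myt1 and Prox1. Pax6 was at 60.5 to 129.8 FPKM in alpha cells and 30.5 to 125 in beta cells (difference -0.57 ± 0.42), Nkx2-2 at 54 to 252 FPKM in alpha cells and 46.6 to 144 in beta cells (-0.44 ± 0.52) and Neurod1 at 13.4 to 32.2 FPKM in alpha cells and 17.3 to 84.6 in beta cells (0.73 ± 0.45, adjusted p = 0.33). After median-ratio scaling Neurod1 had a difference of 0.97 (adjusted p = 0.02). Isl1, at 98.6 to 161 FPKM in alpha cells and 11.4 to 141 in beta cells, had a difference of -1.57 ± 0.59 (adjusted p = 0.11), and -1.34 (adjusted p = 0.032) after that scaling.

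Of 12 genes of glucose entry, glucose phosphorylation and the ATP-sensitive potassium channel, 2 were higher and 2 lower in beta cells. Slc2a2 encodes GLUT2, the main glucose transporter of rodent beta cells. It was at 2.81, 2.98, 1.45, 0.753 and 1.19 FPKM in alpha cells and 128, 416, 126 and 273 FPKM in beta cells (log2 difference 6.27 ± 0.41, adjusted p = 1.2e-07). G6pc2 encodes the islet glucose-6-phosphatase, which reverses glucose phosphorylation. It was at 77.4, 54.4, 30.3, 18.8 and 15.6 FPKM in alpha cells and 596, 5341, 658 and 1170 FPKM in beta cells (log2 difference 5.21 ± 0.67, adjusted p = 8.7e-05), with beta replicate 2 the highest. The neuronal glucose transporter Slc2a3 was lower in beta cells, at 0.329 to 4.35 FPKM in alpha cells and 0.022 to 0.0492 in beta cells (log2 difference -1.79 ± 0.39, adjusted p = 0.0086). The subunits of the ATP-sensitive potassium channel, Kcnj11 (7.83 to 29 FPKM in alpha cells and 8.34 to 12.9 in beta cells, difference -0.31 ± 0.39) and Abcc8 (12 to 76.9 FPKM in alpha cells and 20.1 to 60.4 in beta cells, difference 0.00 ± 0.52), overlapped between the groups. The other lower gene was Hk1, a hexokinase, whose call was lost in 7 of the 9 fits that left out 1 sample.

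The shares of glycolytic and TCA cycle genes called did not exceed that of all genes (8.54%). Of 21 glycolytic genes 1 was higher, Pfkfb2, whose product makes fructose 2,6-bisphosphate (3.17 to 7.84 FPKM in alpha cells and 13.5 to 49.7 in beta cells, log2 difference 2.26 ± 0.40, adjusted p = 0.0018), and none was lower, but 3 were without beta replicate 2 and 1 in the samples with a ribosomal protein sum below 50000 FPKM. Of 40 genes of the TCA cycle and pyruvate cycling 2 were higher and 1 lower, and none of the 3 kept its call whichever sample was left out. After median-ratio scaling 4 were higher, without beta replicate 2 there were 5 lower, and in the fit of the 9 samples alone none was called. Pdk4, a kinase that inhibits pyruvate dehydrogenase, stood out from the 7 kinases and phosphatases of that enzyme. It was at 96.1, 90.3, 70.4, 143 and 150.4 FPKM in alpha cells and 0.133, 0.0733, 0.00566 and 0.0575 FPKM in beta cells (log2 difference -6.64 ± 0.30, adjusted p = 2.3e-09), and the other 6 were not called. Of 27 genes of fatty acid oxidation 2 were higher and 2 lower, or 5 and 1 after median-ratio scaling, and 4 were higher without alpha replicate 1. Hadh was higher in beta cells (1.88 to 10.8 FPKM in alpha cells and 55.3 to 440.1 in beta cells, log2 difference 4.23 ± 0.59, adjusted p = 1.8e-04). Its product is the short-chain 3-hydroxyacyl-CoA dehydrogenase, whose loss causes excess insulin secretion. Cd36, a fatty acid uptake receptor, was lower (0.643 to 22.8 FPKM in alpha cells and 0 to 0.599 in beta cells, log2 difference -2.68 ± 0.60, adjusted p = 0.01). Acadvl was lower (log2 difference -1.37 ± 0.32, adjusted p = 0.014), but after median-ratio scaling it was not called, at -1.11 (adjusted p = 0.06), and Acsl6 was higher except without beta replicate 4. Of 20 genes of cholesterol and fatty acid synthesis 2 were higher and none lower, where 8.54% of all genes were called. Of these 2 genes Sqle, squalene epoxidase, kept its call (3.67 to 11.4 FPKM in alpha cells and 18 to 61.1 in beta cells, log2 difference 2.04 ± 0.42, adjusted p = 0.0063). After median-ratio scaling 5 were higher.

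Of 12 tested genes known for being kept low in beta cells ("disallowed" genes), 3 were lower in beta cells than in alpha cells, and Oat, ornithine aminotransferase, kept its call (10.1 to 40.4 FPKM in alpha cells and 0.00696 to 0.527 in beta cells, log2 difference -3.88 ± 0.38, adjusted p = 5.3e-06). Ldha and Slc16a1, the classic members of that group, were below the limit for testing in both cell types.

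Of 11 prohormone processing genes 1 was called, a share close to the 8.54% of all genes, and after median-ratio scaling 3 were higher. Pcsk1 encodes PC1/3, which cuts proinsulin, and was at 2.36, 0.842, 0.589, 0.365 and 1.07 FPKM in alpha cells and 56.5, 263, 79.7 and 155 FPKM in beta cells (log2 difference 5.92 ± 0.43, adjusted p = 2.7e-07). Pcsk2 encodes PC2, which releases glucagon and also acts on proinsulin, and was at 153 to 577 FPKM in alpha cells and 95.8 to 393 in beta cells (-0.79 ± 0.50, adjusted p = 0.34). Carboxypeptidase E (Cpe) overlapped between the groups as well (98.8 to 1130 FPKM in alpha cells and 249.7 to 1087 in beta cells, 0.67 ± 0.65). Without alpha replicate 3 or beta replicate 2, 1 gene was called lower. In the samples with a ribosomal protein sum below 50000 FPKM 1 was lower as well. Of 7 granins, the acidic proteins of the granule core, Scg2 was higher in beta cells at 784, 1932, 502 and 2810 FPKM against 123, 78.7, 88.1, 220.3 and 300.2 FPKM in alpha cells (log2 difference 3.09 ± 0.62, adjusted p = 0.0053). In the fit of the samples with a ribosomal protein sum below 50000 FPKM Scg2 was not called, and 2 members of the group, Pcsk1n and Vgf, were lower. Chga and Chgb were not called (0.77 ± 0.80 and 1.76 ± 1.12). Chgb ranged from 17.2 to 589 FPKM within alpha cells, low in replicates 1 to 3 and high in replicates 4 and 5, which were also the alpha samples with the lower ribosomal protein sum and the male pools, so that these cannot be told apart.

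Of 51 genes of endoplasmic reticulum (ER) folding and the unfolded protein response 9 were higher and none lower, against 3.18% and 5.36% of all genes, with a median of 0.479. The count depended on single samples, with 3 higher without beta replicate 4 and 5 without alpha replicate 2, and 5 lower without beta replicate 2. After median-ratio scaling 16 were higher and 1 lower. Ero1lb, an oxidase that forms disulphide bonds during insulin folding, was at 18.4, 13.5, 11.2, 10.1 and 21.4 FPKM in alpha cells and 316, 1260, 242 and 695 FPKM in beta cells (log2 difference 5.05 ± 0.54, adjusted p = 1.2e-05). Sel1l, a subunit of the ER degradation complex, was at 6.48 to 11.3 FPKM in alpha cells and 22 to 79.6 in beta cells (log2 difference 1.99 ± 0.41, adjusted p = 0.0056). These were the calls kept whichever sample was left out. Edem1 and Ddit3 (CHOP) were called except without beta replicate 4 (log2 difference 2.00 ± 0.49, adjusted p = 0.019 and log2 difference 1.26 ± 0.30, adjusted p = 0.017), and Creb3l1 except without beta replicate 1 (log2 difference 1.98 ± 0.48, adjusted p = 0.017). The chaperone Hspa5 (BiP) was at 227 to 378 FPKM in alpha cells and 367 to 1216 in beta cells, with a difference of 1.22 ± 0.43 (adjusted p = 0.091), and after median-ratio scaling of 1.47 (adjusted p = 0.0074). Wfs1 was not called (1.94 ± 0.62, adjusted p = 0.063).

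Of 57 genes of the exocytosis machinery 5 were higher and 6 lower in beta cells, with a median of 0.0653, and 7 (3 higher, 4 lower) kept the call whichever sample was left out. Higher were Sytl4, or granuphilin, which docks insulin granules (0.178 to 4.08 FPKM in alpha cells and 19.2 to 121 in beta cells, log2 difference 4.48 ± 0.53, adjusted p = 3.6e-05), and Pclo, an active-zone scaffold (0.143 to 4.47 FPKM in alpha cells and 9.87 to 34.2 in beta cells, log2 difference 3.35 ± 0.59, adjusted p = 0.0016). Rims3, of the same zone, was higher too (0 to 0.0979 FPKM in alpha cells and 2.06 to 9.34 in beta cells, log2 difference 2.21 ± 0.36, adjusted p = 8.3e-04). The vesicle protein Sv2b was lower (9.52 to 21.6 FPKM in alpha cells and 0.0774 to 1.22 in beta cells, log2 difference -3.73 ± 0.31, adjusted p = 1.1e-06). Rab3c, a vesicle GTPase, was lower (2.09 to 10.4 FPKM in alpha cells and 0.0679 to 0.225 in beta cells, log2 difference -2.35 ± 0.37, adjusted p = 6.6e-04). So were the synaptotagmins Syt9 (log2 difference -2.13 ± 0.40, adjusted p = 0.0027) and Syt16 (log2 difference -2.02 ± 0.30, adjusted p = 3.4e-04). The core SNARE gene Snap25 was at 103 to 212 FPKM in alpha cells and 60.3 to 230.0 in beta cells and was not called (-0.42 ± 0.41). The count of higher genes was 3 without alpha replicates 1, 2 or 3 or beta replicates 1 or 4, and 8 after median-ratio scaling.

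Zinc is packed with insulin in the granule. The granule zinc transporter Slc30a8 was at 289, 376, 384, 96.9 and 149 FPKM in alpha cells and 166, 568, 97.7 and 276 FPKM in beta cells (-0.02 ± 0.53), and the groups overlapped. Of 18 zinc genes, the transporter Slc39a11 was lower in beta cells (6.84 to 14.6 FPKM in alpha cells and 0.141 to 0.498 in beta cells, log2 difference -2.99 ± 0.33, adjusted p = 1.7e-05). The metallothionein Mt2 was higher (19.4 to 138 FPKM in alpha cells and 112 to 529 in beta cells, log2 difference 2.27 ± 0.53, adjusted p = 0.014). Slc39a11 lies opposite Sstr2 on chromosome 11 and counting by strand is not stated, so reads of these genes cannot be fully told apart. Mt1 and Slc39a1 were called but not whichever sample was left out.

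Of 14 peptide hormone receptors 3 were higher and 6 lower in beta cells, with 2 and 4 kept whichever sample was left out. Glp1r, the receptor of the incretin GLP-1, was at 2.19, 1.45, 1.2, 4.09 and 2.84 FPKM in alpha cells and 192, 250.2, 157 and 230.1 FPKM in beta cells (log2 difference 6.00 ± 0.40, adjusted p = 1.3e-07). Galr1, a galanin receptor, was at 0.0447 to 1.06 FPKM in alpha cells and 4.25 to 13.1 in beta cells (log2 difference 2.51 ± 0.33, adjusted p = 1.2e-04). Gcgr, the glucagon receptor, was listed at 0 in all 5 alpha samples and at 2.12, 3.35, 0.529 and 0.648 FPKM in beta cells (log2 difference 1.27 ± 0.34, adjusted p = 0.03), and the call was lost without alpha replicate 1, alpha replicate 2, beta replicate 1 and beta replicate 2. Gipr, the other incretin receptor, overlapped between the groups (0.22 to 5.67 FPKM in alpha cells and 1.72 to 4.16 in beta cells, 0.64 ± 0.47).

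The peptide receptors lower in beta cells included those of the posterior pituitary hormones. Oxtr, the oxytocin receptor, was at 13.8, 30.6, 4.13, 23 and 32.9 FPKM in alpha cells and 0.593, 0.538, 0.71 and 0.282 FPKM in beta cells (log2 difference -3.57 ± 0.48, adjusted p = 1.5e-04). Avpr1b, a vasopressin receptor, was at 7.18, 9.36, 4.07, 8.22 and 8.87 FPKM in alpha cells and 0.0468, 0.025, 0 and 0.00285 FPKM in beta cells (log2 difference -3.02 ± 0.28, adjusted p = 3.3e-06). Oprl1, the nociceptin receptor, was listed at 0 in all beta samples and at 1.76 to 4.54 FPKM in alpha cells (log2 difference -2.02 ± 0.36, adjusted p = 0.0019). Sstr2, a somatostatin receptor, was at 0.549 to 3.3 FPKM in alpha cells and 0 to 0.0617 in beta cells (log2 difference -1.70 ± 0.33, adjusted p = 0.004), lowest among alpha cells in replicate 3. Vipr1 was called except without beta replicate 4 (log2 difference -1.57 ± 0.36, adjusted p = 0.012).

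Of 10 receptors of neurotransmitters and nucleotides, 6 were higher and 1 was lower in beta cells, against 3.18% and 5.36% of all genes, with a median of 1.86. Only these 10 of 58 such genes passed the limit for testing. P2ry1, P2ry6 and Chrm3 passed it through beta cells alone, so the count and the median follow in part from the filter. P2ry1, an ADP receptor coupled to phospholipase C, was at 0.666, 0.154, 0.352, 0.111 and 0.287 FPKM in alpha cells and 6, 24.5, 10.2 and 16.7 FPKM in beta cells (log2 difference 3.40 ± 0.46, adjusted p = 1.5e-04). P2ry6, a UDP receptor, was at 0 to 0.406 FPKM in alpha cells and 3.34 to 9.09 in beta cells (log2 difference 2.59 ± 0.35, adjusted p = 1.5e-04). The alpha-2A adrenoceptor Adra2a, through which catecholamines inhibit insulin release, was at 0.0763 to 1.56 FPKM in alpha cells and 4.11 to 11.8 in beta cells (log2 difference 2.57 ± 0.35, adjusted p = 1.7e-04). Of the adenosine receptors, Adora3 was higher in beta cells (0.826 to 3.89 FPKM in alpha cells and 6.34 to 72.9 in beta cells, log2 difference 2.55 ± 0.61, adjusted p = 0.016). Adora2a was lower (0.183 to 4.51 FPKM in alpha cells and 0 to 0.0648 in beta cells, log2 difference -1.81 ± 0.41, adjusted p = 0.012). The muscarinic receptor Chrm3 was higher (0 to 0.788 FPKM in alpha cells and 1.58 to 6.26 in beta cells, log2 difference 1.65 ± 0.33, adjusted p = 0.0052). The sixth, Gabbr2, lost its call without alpha replicate 1, alpha replicate 2, alpha replicate 4, alpha replicate 5, beta replicate 3 and beta replicate 4.

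Of 31 metabolite, lipid and orphan GPCRs 1 was higher and 6 lower in beta cells, with a median of -0.803. Gpr81, the lactate receptor, was at 3.36 to 16.9 FPKM in alpha cells and 0 to 0.0674 in beta cells (log2 difference -3.05 ± 0.36, adjusted p = 3.7e-05). O3far1, also known as Ffar4 and a receptor of long-chain fatty acids, was at 2.67 to 17.5 FPKM in alpha cells and 0 to 0.0842 in beta cells (log2 difference -2.91 ± 0.43, adjusted p = 3.1e-04). Gpr119, a lipid amide receptor, was at 43.6, 72.2, 38.6, 13.6 and 22.8 FPKM in alpha cells and 4.42, 18.4, 1.67 and 1.97 FPKM in beta cells (log2 difference -2.66 ± 0.59, adjusted p = 0.01), with beta replicate 2 inside the alpha range. Gprc5b was lower as well (log2 difference -1.77 ± 0.25, adjusted p = 2.4e-04), and Ffar2, a receptor of short-chain fatty acids, was called except without beta replicates 1 or 4 (log2 difference -1.38 ± 0.33, adjusted p = 0.017). The higher member was the orphan receptor Gpr158, at 0.134, 0.0761, 0.152, 0.179 and 0.45 FPKM in alpha cells and 15.8, 36.2, 13.6 and 44.1 FPKM in beta cells (log2 difference 4.41 ± 0.43, adjusted p = 5.0e-06). Without beta replicate 3 there were 3 higher members.

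**Figure D3:**
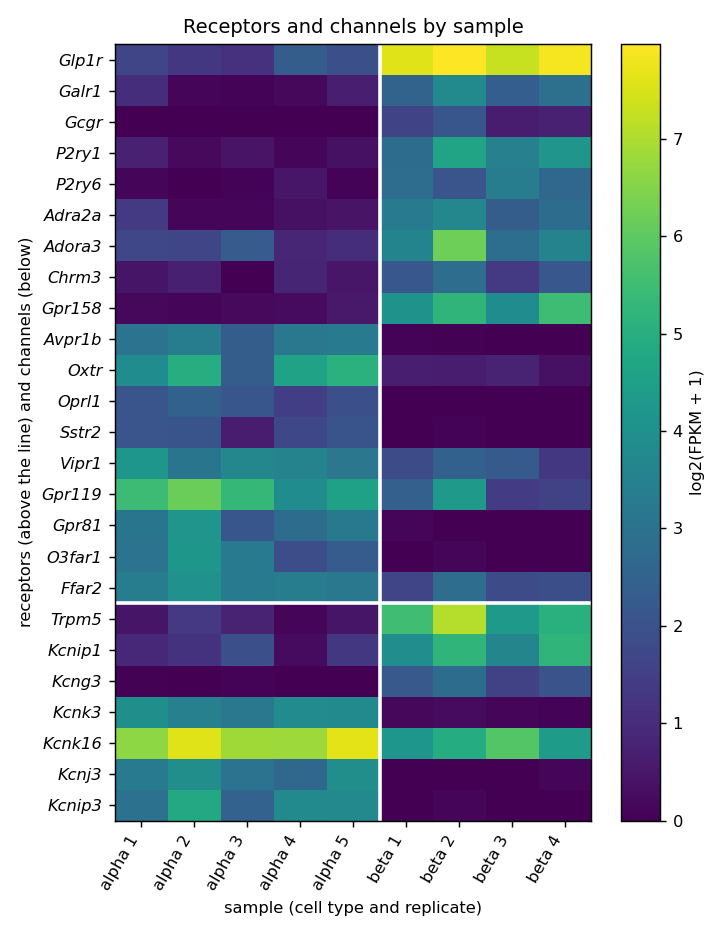
log2(FPKM + 1) of 18 receptors (above the horizontal line) and 7 channel genes (below it) in each sample, alpha replicates left and beta replicates right of the vertical line. Glp1r reached 157 to 250 FPKM in beta cells and at most 4.09 FPKM in alpha cells, and Kcnk16 was high in alpha cells but not absent from beta cells.

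Of 32 potassium channel genes 4 were higher and 8 lower in beta cells, the lower ones 4 without beta replicate 1 and 5 without beta replicate 4. After median-ratio scaling 9 were higher and 9 lower, and after quantile normalization 8 were higher and 12 lower. Kcnk3, or TASK-1, a leak channel, was at 14.6, 10.2, 8.06, 13.2 and 13 FPKM in alpha cells and 0.127, 0.17, 0.0858 and 0.0516 FPKM in beta cells (log2 difference -3.51 ± 0.27, adjusted p = 5.1e-07). Kcnk16, or TALK-1, another leak channel of islets, was at 97.1, 189, 114, 112 and 200.0 FPKM in alpha cells and 17.4, 29.7, 55.7 and 20.1 FPKM in beta cells (log2 difference -2.26 ± 0.41, adjusted p = 0.0022). Kcnj3, a G-protein gated channel, was at 5.29 to 14.4 FPKM in alpha cells and 0 to 0.107 in beta cells (log2 difference -3.33 ± 0.33, adjusted p = 5.2e-06). The channel-interacting protein Kcnip3 was lower in beta cells (4.71 to 27 FPKM in alpha cells and 0.00704 to 0.0946 in beta cells, log2 difference -3.52 ± 0.39, adjusted p = 1.8e-05). Kcnip1 was higher (0.181 to 2.85 FPKM in alpha cells and 11.4 to 36.5 in beta cells, log2 difference 3.38 ± 0.43, adjusted p = 8.4e-05). Kcng3, a modifier of delayed rectifiers, was higher (0 to 0.0606 FPKM in alpha cells and 1.95 to 6.07 in beta cells, log2 difference 2.13 ± 0.30, adjusted p = 1.9e-04). Kcnj12 was listed at 0 in alpha cells and at 1.33 to 2.05 FPKM in beta cells (log2 difference 1.39 ± 0.25, adjusted p = 0.0021).

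Of 9 TRP channels 3 were higher and none lower in beta cells, and all 3 kept the call whichever sample was left out. Trpm5, a calcium-activated cation channel, was at 0.36, 1.51, 0.728, 0.103 and 0.365 FPKM in alpha cells and 45.4, 135, 19.1 and 32.4 FPKM in beta cells (log2 difference 4.87 ± 0.44, adjusted p = 2.1e-06). Trpm3 was at 0 to 0.222 FPKM in alpha cells and 1.63 to 5.24 in beta cells (log2 difference 1.78 ± 0.31, adjusted p = 0.0014). Mcoln3, a lysosomal channel, was at 0 to 0.013 FPKM in alpha cells and 0.796 to 5.38 in beta cells (log2 difference 1.55 ± 0.35, adjusted p = 0.01). Of 10 voltage-gated calcium channel subunits 1 was higher and 2 lower, and Cacnb3, a beta subunit, kept its call (4.19 to 19.4 FPKM in alpha cells and 1.59 to 2.46 in beta cells, log2 difference -1.91 ± 0.46, adjusted p = 0.018). None of 5 voltage-gated sodium channels was called, 1 was higher and 1 lower after median-ratio scaling, 1 was higher without beta replicate 3, 2 were lower without alpha replicate 3 and 1 without beta replicate 2.

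Of 24 chloride channels and cotransporters 1 was higher and 1 lower, a share close to the 8.54% of all genes. The lower one, the kinase Wnk3, which regulates chloride cotransporters, was at 81.4, 121, 90.4, 129 and 208 FPKM in alpha cells and 6.73, 4.88, 2.56 and 11.8 FPKM in beta cells (log2 difference -4.16 ± 0.47, adjusted p = 2.3e-05). The potassium-chloride cotransporter Slc12a7 was higher in beta cells (0.184 to 1.5 FPKM in alpha cells and 2.33 to 4.14 in beta cells, log2 difference 1.54 ± 0.35, adjusted p = 0.012). Among 16 genes of calcium stores and entry 1 was called, a share no larger than that of all genes. It was Atp2a2, which encodes the ER calcium pump SERCA2, at 20.9, 14.2, 6.26, 45.6 and 72.4 FPKM in alpha cells and 130.4, 266, 137 and 360.1 FPKM in beta cells (log2 difference 3.08 ± 0.64, adjusted p = 0.0065).

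G proteins and their regulators were lower in 6 and higher in 2 of 34 genes, the lower ones 3 without alpha replicate 2. Gnas, which encodes the stimulatory alpha subunit, was at 1509, 1423, 866, 896 and 1856 FPKM in alpha cells and 242, 336, 196 and 139.8 FPKM in beta cells (log2 difference -2.52 ± 0.40, adjusted p = 6.3e-04). Its locus is imprinted and holds overlapping transcripts on both strands, so that its total may mix them. Gnai1, an inhibitory subunit, was at 20.5 to 58.1 FPKM in alpha cells and 1.68 to 25.6 in beta cells (log2 difference -2.61 ± 0.53, adjusted p = 0.0054). Rgs4 was at 23.9 to 117 FPKM in alpha cells and 1.22 to 11.9 in beta cells (log2 difference -3.67 ± 0.55, adjusted p = 4.0e-04). Gng12 was higher in beta cells (13.3 to 26.5 FPKM in alpha cells and 76.6 to 356 in beta cells, log2 difference 2.74 ± 0.46, adjusted p = 0.0011). Rgs11 was higher as well (0.0757 to 0.972 FPKM in alpha cells and 3.03 to 5.2 in beta cells, log2 difference 1.90 ± 0.34, adjusted p = 0.0019). Of 37 genes of cyclic AMP signalling 4 were higher and 1 lower, but 1 was higher without beta replicates 1 or 4 and 2 without alpha replicates 2, 3 or 5, while 6 were higher without beta replicate 3 and 7 after median-ratio scaling, and 3 were lower without beta replicate 2 and 2 without alpha replicates 3 or 4. Pde5a, which breaks down cyclic GMP, was at 0.561 to 1.4 FPKM in alpha cells and 11.7 to 45.5 in beta cells (log2 difference 3.92 ± 0.38, adjusted p = 4.8e-06). Pde4d, which breaks down cyclic AMP, was at 1.7 to 17.3 FPKM in alpha cells and 0.33 to 0.798 in beta cells (log2 difference -2.46 ± 0.46, adjusted p = 0.003).

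Prolactin and growth hormone expand beta cells in pregnancy and growth, and 3 of 13 genes of their signalling were higher and none lower in beta cells. Prlr, the prolactin receptor, was at 51.3, 2.42, 0.38, 1.08 and 1.07 FPKM in alpha cells and 207, 492, 165 and 264 FPKM in beta cells (log2 difference 6.01 ± 0.83, adjusted p = 1.9e-04), with alpha replicate 1 far above the other alpha samples. Ghr, the growth hormone receptor, was at 16.8 to 32 FPKM in alpha cells and 57.3 to 183 in beta cells (log2 difference 2.14 ± 0.41, adjusted p = 0.0036). Lifr was called but not whichever sample was left out. Of 23 genes of insulin and IGF signalling 3 were higher and 2 lower, and Insrr, the insulin receptor-related receptor, was the call that was kept (4.7, 3.17, 0.776, 3.44 and 3.51 FPKM in alpha cells, 46.5, 48.7, 56.7 and 14.6 FPKM in beta cells, log2 difference 3.31 ± 0.52, adjusted p = 6.3e-04). Grb10, an imprinted adaptor that restrains insulin signalling, was lower except without beta replicate 1 (log2 difference -2.42 ± 0.57, adjusted p = 0.015).

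Beta cells make GABA and monoamines. Gad1, which makes GABA, was at 0.567, 0.143, 0.133, 0.302 and 0.315 FPKM in alpha cells and 24.4, 40.8, 10.6 and 14.6 FPKM in beta cells (log2 difference 4.03 ± 0.34, adjusted p = 1.2e-06). Th, tyrosine hydroxylase, was at 0, 0, 0.0576, 0.0303 and 0 FPKM in alpha cells and 5.93, 30.7, 6.89 and 4.61 FPKM in beta cells (log2 difference 3.29 ± 0.47, adjusted p = 2.3e-04). These were the 2 calls kept among 13 genes of GABA, glutamate and monoamine handling. Of 12 tested ligand-gated receptor subunits, the NMDA subunit Grin1 was higher in beta cells (0.0248 to 0.623 FPKM in alpha cells and 3.3 to 7.31 in beta cells, log2 difference 2.15 ± 0.37, adjusted p = 0.0015), and 3 were lower, 1 without alpha replicate 2 and 0 without beta replicate 1, among them the AMPA subunit Gria2 (8.72 to 15.8 FPKM in alpha cells and 1.42 to 9.89 in beta cells, log2 difference -1.79 ± 0.43, adjusted p = 0.016), whose call was lost without beta replicate 1. Of 12 genes of type 1 diabetes autoantigens and their relatives 6 were higher in beta cells (Ins1, Ins2, Iapp, G6pc2, Gad1 and Ica1l, a relative of Ica1). All 6 kept the call whichever sample was left out. Except for Ica1l, these are also counted in groups above. Ica1l was at 0.0158 to 0.587 FPKM in alpha cells and 1.78 to 12.4 in beta cells (log2 difference 2.47 ± 0.42, adjusted p = 0.0012). Tspan7 was lower in beta cells (77.1 to 212 FPKM in alpha cells and 21.5 to 113 in beta cells, log2 difference -1.98 ± 0.52, adjusted p = 0.029), a call that was lost without alpha replicate 1, alpha replicate 2, beta replicate 1, beta replicate 3 and beta replicate 4. Chga, Ica1, Ptprn, Ptprn2 and Slc30a8 were not called.

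**Figure D4:**
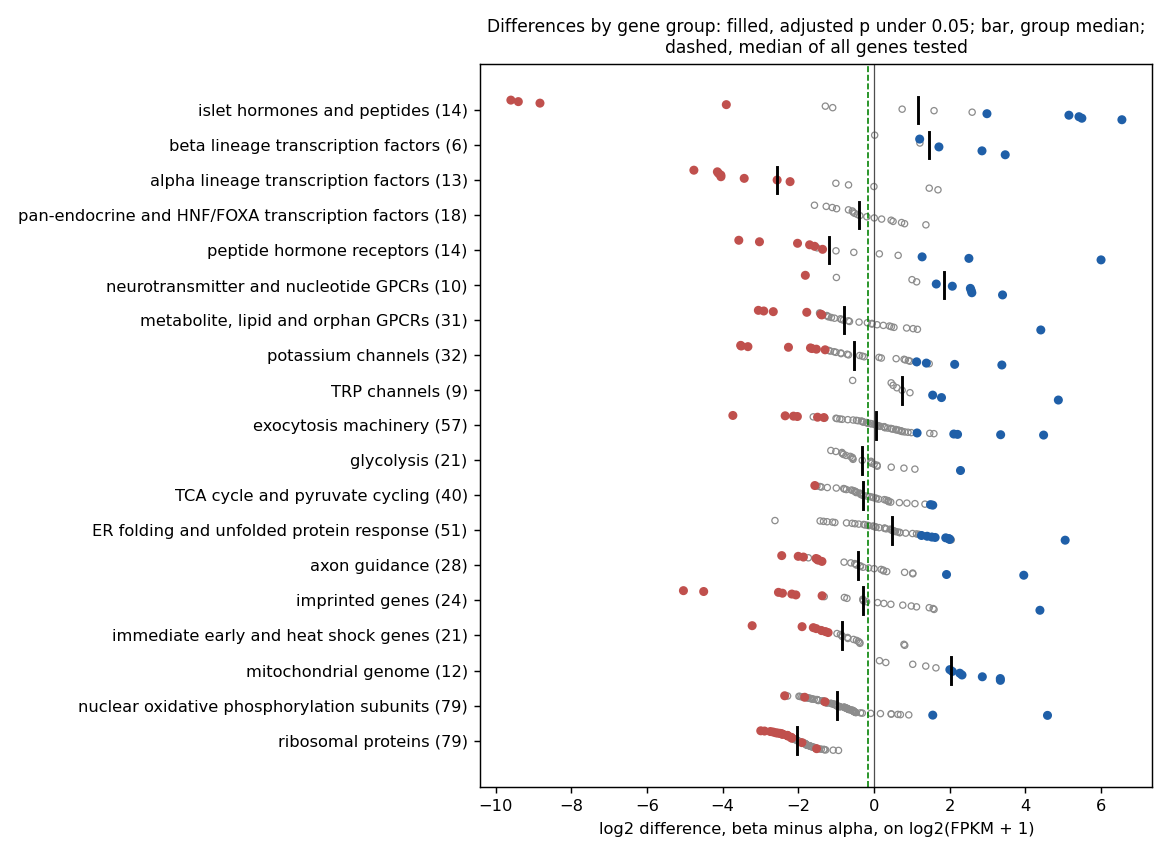
Log2 difference (beta minus alpha) of each tested gene in 19 gene groups, with the number tested in brackets. Filled points are called genes (blue higher, red lower in beta cells), open circles are not called, black bars are group medians and the dashed line is the median of all genes (-0.166). Pan-endocrine factors hold no filled point, and all 79 ribosomal protein genes lie below 0.

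Of 32 cadherins, claudins, integrins and connexins 3 were higher and 6 lower, with 1 higher without beta replicate 4 and 3 lower without alpha replicate 2 or beta replicates 1 or 4. Itga6 was higher (0.92 to 3.78 FPKM in alpha cells and 5.63 to 17.3 in beta cells, log2 difference 2.12 ± 0.39, adjusted p = 0.0022). The tight junction gene Cldn6 was lower (11.8 to 49.5 FPKM in alpha cells and 0 to 4.02 in beta cells, log2 difference -3.79 ± 0.49, adjusted p = 8.8e-05). The adhesion molecule Cadm1 was lower, with overlapping groups (3.38 to 20.5 FPKM in alpha cells and 0.139 to 4.19 in beta cells, log2 difference -2.86 ± 0.50, adjusted p = 0.0016). The cadherin Cdh9 was listed at 0 in all beta samples and at 1.15 to 8.14 FPKM in alpha cells (log2 difference -2.41 ± 0.36, adjusted p = 3.4e-04). Gjd2, which encodes connexin 36, the gap junction of beta cells, was at 9.21, 13.3, 6.99, 2.87 and 3.5 FPKM in alpha cells and 23.7, 105, 13.5 and 36.6 FPKM in beta cells (log2 difference 2.25 ± 0.61, adjusted p = 0.031), and the call was lost without alpha replicate 4, alpha replicate 5, beta replicate 1, beta replicate 2 and beta replicate 4. Of 28 axon guidance genes 2 were higher and 7 lower. Cntn1, a contactin, was at 0.0751 to 0.474 FPKM in alpha cells and 8.02 to 42.3 in beta cells (log2 difference 3.96 ± 0.42, adjusted p = 1.2e-05). Robo1, a Slit receptor, was at 0 to 1.2 FPKM in alpha cells and 2.33 to 4.78 in beta cells (log2 difference 1.92 ± 0.30, adjusted p = 6.8e-04). The netrin Ntn4 (log2 difference -2.44 ± 0.35, adjusted p = 3.0e-04), the semaphorins Sema4f (0.937 to 8.81 FPKM in alpha cells and 0 to 0.0703 in beta cells) and Sema3e (log2 difference -1.53 ± 0.33, adjusted p = 0.0085) and the ephrin Efnb3 (log2 difference -1.86 ± 0.36, adjusted p = 0.0038) were lower in beta cells.

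GDNF family ligands support neurons. Gfra3, the artemin co-receptor, was at 18.3, 18.6, 13.1, 10.7 and 16.2 FPKM in alpha cells and 0.22, 0.0792, 0 and 0.0818 FPKM in beta cells (log2 difference -3.88 ± 0.27, adjusted p = 1.9e-07). Gfra1 was at 3.15 to 11.6 FPKM in alpha cells and 0 to 0.198 in beta cells (log2 difference -2.97 ± 0.38, adjusted p = 8.1e-05). Ret and Nrtn, the other members tested, were not called. Caveolin 1 (Cav1), the coat protein of caveolae, was listed at 0 in all beta samples and at 15.6, 25.1, 10.2, 3.93 and 27.9 FPKM in alpha cells (log2 difference -3.88 ± 0.41, adjusted p = 1.2e-05). Of 25 Wnt pathway genes the secreted inhibitor Sfrp5 was the call kept, at 68.7, 71.9, 40.02, 45 and 82.5 FPKM in alpha cells and 1.99, 2.73, 1.09 and 1.78 FPKM in beta cells (log2 difference -4.41 ± 0.34, adjusted p = 4.7e-07). Of 25 genes of TGF-beta, BMP and activin signalling 2 were lower, a share close to the 8.54% of all genes, and neither kept its call. Of 28 enzymes of O-glycosylation and glycosphingolipids 5 were higher and 4 lower, with 5 kept. The higher ones were 3 without alpha replicates 1 or 2 or beta replicates 1 or 4, and the lower ones 2 without alpha replicate 1 or beta replicate 3. Galnt13 was listed at 0 in all beta samples and at 21, 17.4, 11.3, 12.1 and 23.7 FPKM in alpha cells (log2 difference -4.12 ± 0.28, adjusted p = 1.3e-07). Ugt8a, which makes galactosylceramide, was likewise at 0 in beta cells against 2.82 to 6.85 FPKM (log2 difference -2.65 ± 0.28, adjusted p = 1.1e-05), and the ganglioside enzyme St8sia1 was higher in beta cells (0.0165 to 0.156 FPKM in alpha cells and 3.28 to 8.55 in beta cells, log2 difference 2.49 ± 0.29, adjusted p = 2.9e-05).

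Of 26 amino acid transporters Slc38a5, which carries glutamine, was lower (35.2, 101, 18, 11.8 and 14.2 FPKM in alpha cells, 1.79, 0.187, 0.186 and 0.0133 FPKM in beta cells, log2 difference -4.24 ± 0.67, adjusted p = 6.5e-04). Slc6a19, a neutral amino acid transporter, was higher in beta cells (0 to 0.011 FPKM in alpha cells and 1.22 to 7.66 in beta cells, log2 difference 1.91 ± 0.40, adjusted p = 0.0063). Without beta replicate 1, 1 of the 3 genes called lower was left, Slc38a5, and after median-ratio scaling 4 were higher. Of 24 imprinted genes 7 were lower and 1 higher, with 2 higher without alpha replicate 4 and 3 after median-ratio scaling. The neighbours Sgce and Peg10 on chromosome 6 were both lower. Sgce was at 37.2, 84.5, 32.4, 17 and 26.5 FPKM in alpha cells and 0, 0.329, 0 and 0 FPKM in beta cells (log2 difference -5.03 ± 0.48, adjusted p = 3.7e-06). Peg10 was at 27.6, 53.3, 12, 13.6 and 21.8 FPKM and 0.0668, 0.0348, 0.004 and 0 FPKM (log2 difference -4.50 ± 0.44, adjusted p = 5.0e-06). Asb4 on the same chromosome (log2 difference -2.06 ± 0.36, adjusted p = 0.0016) and Ndn (log2 difference -2.17 ± 0.47, adjusted p = 0.0086) were lower too. Rasgrf1, a Ras exchange factor, was higher in beta cells (0.782, 0.456, 0.0441, 1.35 and 0.0557 FPKM in alpha cells, 28.1, 102, 7.51 and 33.3 FPKM in beta cells, log2 difference 4.39 ± 0.54, adjusted p = 5.8e-05). Of 25 nuclear receptors 2 were higher and 4 lower, with 1 higher without alpha replicates 1, 2 or 3 or beta replicates 1, 2 or 4 and 4 after median-ratio scaling. Pparg was at 0 to 0.215 FPKM in alpha cells and 2.42 to 8.46 in beta cells (log2 difference 2.48 ± 0.30, adjusted p = 5.0e-05). Rxra was at 5.96 to 19.2 FPKM in alpha cells and 0.891 to 1.95 in beta cells (log2 difference -2.23 ± 0.40, adjusted p = 0.0018). Thra was at 4.52 to 17.3 FPKM in alpha cells and 1.13 to 2.61 in beta cells (log2 difference -1.75 ± 0.39, adjusted p = 0.011).

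Immediate early genes are known to rise with stress during tissue handling. Of 21 immediate early and heat shock genes 7 were lower and none higher, with a median of -0.844, and the count was 2 without beta replicate 4, 3 without beta replicate 1, and 4 without alpha replicates 2 or 5 or beta replicate 3. Gadd45b was at 8.96, 16.6, 11.2, 10.8 and 15.9 FPKM in alpha cells and 0.655, 0.128, 0.187 and 0.924 FPKM in beta cells (log2 difference -3.22 ± 0.35, adjusted p = 1.6e-05). Nr4a2 was at 5.66 to 10.5 FPKM in alpha cells and 0.769 to 4.1 in beta cells (log2 difference -1.60 ± 0.37, adjusted p = 0.014). Of 29 antigen presentation and interferon genes 5 were lower and none higher, 3 lower without beta replicate 1. The immunoproteasome subunits Psmb9 (log2 difference -2.29 ± 0.53, adjusted p = 0.013) and Psmb10 (log2 difference -1.65 ± 0.34, adjusted p = 0.0065) kept their calls. So did the RNA sensor Ifih1 (7.91 to 27.4 FPKM in alpha cells and 0.378 to 6.36 in beta cells, log2 difference -2.21 ± 0.49, adjusted p = 0.0093). The sum of 9 leukocyte genes was 8.63 to 27.8 FPKM in alpha and 3.79 to 26.4 FPKM in beta cells, led by C1qa except in beta replicate 4, and its part in these counts was not tested. Of 30 antioxidant genes 3 were lower and none higher, where 8.54% of all genes were called. There were 8 lower without beta replicate 2, 5 without alpha replicate 4, 1 without beta replicates 1 or 4, and 7 after median-ratio scaling, when 2 were higher. Gpx3, the secreted glutathione peroxidase, was at 553, 498, 167, 974 and 1379 FPKM in alpha cells and 4.81, 18.7, 3.72 and 3.74 FPKM in beta cells (log2 difference -6.33 ± 0.59, adjusted p = 3.1e-06). None of 13 iron handling or 23 cell cycle genes was called, with at most 2 and 1 calls when samples were left out.

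All 12 tested mitochondrial genes had differences above 0 and 7 were called higher in beta cells, with a median of 2.04. The count was 3 without beta replicate 4, and 4 without alpha replicate 2 or beta replicate 2. Their summed FPKM was 42284, 32453, 36730, 10404 and 20520 in alpha replicates 1 to 5 and 39777, 212922, 42398 and 93206 in beta replicates 1 to 4, so that the sums overlap. mt-Nd5 was at 427, 116, 107, 385 and 839 FPKM in alpha cells and 2051, 5280, 1314 and 4625 FPKM in beta cells (log2 difference 3.34 ± 0.70, adjusted p = 0.007). mt-Nd4 was at 302 to 1394 FPKM in alpha cells and 3024 to 14805 in beta cells (log2 difference 3.34 ± 0.67, adjusted p = 0.005). mt-Nd2 was at 87.1 to 309 FPKM in alpha cells and 668 to 2447 in beta cells (log2 difference 2.86 ± 0.55, adjusted p = 0.0037). mt-Co1 was not called (1701 to 7514 FPKM in alpha cells and 2538 to 27948 in beta cells, 1.02 ± 0.66). The ribosomal RNA mt-Rnr2, of 1582 nt, was at 3090000 FPKM in beta replicate 2 and 1010000 FPKM in beta replicate 4, which would be 4.89 and 1.6 times all fragments of those libraries. Its reads therefore cannot all have been in the total by which the FPKM of these 2 samples were scaled. In the other samples the value would be 0.044 to 0.362 times all fragments. What the total held is not known for any sample, so the scale of the samples relative to each other is uncertain.

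Of 79 nuclear subunits of oxidative phosphorylation 3 were lower and 2 higher in beta cells, a share no larger than the 8.54% of all genes, with 8 differences above 0 and a median of -0.983. The lower calls were 29 without beta replicate 2, 5 without alpha replicate 4 and 1 without alpha replicate 2 or beta replicates 1 or 4, and 9 after median-ratio scaling. The higher calls were 1 without alpha replicates 1, 2, 4 or 5 or beta replicates 2 or 4. Ndufa13, of complex I, was lower (49.3 to 158 FPKM in alpha cells and 9.69 to 44.5 in beta cells, log2 difference -2.36 ± 0.50, adjusted p = 0.0069). Against the group, Cox6a2, a muscle-type subunit of cytochrome oxidase, was at 3.38, 2.16, 1.53, 6.36 and 10.3 FPKM in alpha cells and 75, 342, 97.5 and 75.5 FPKM in beta cells (log2 difference 4.59 ± 0.52, adjusted p = 2.3e-05). All 79 ribosomal protein genes had differences below 0, with a median of -2.03, and 18 were called lower. That count was 75 without beta replicate 2, 34 without alpha replicate 4, 5 without alpha replicates 1, 2 or 3 or beta replicate 3, and 4 without beta replicates 1 or 4. After median-ratio scaling 47 were lower. Rpl13 kept its call (362 to 1013 FPKM in alpha cells and 49.8 to 191 in beta cells, log2 difference -2.89 ± 0.50, adjusted p = 0.0015). The ribosomal sums given above ranged from 26179 to 140956 FPKM in alpha cells and from 7911 to 76250 FPKM in beta cells, and the part of the library differences in these counts was not tested.

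**Figure D5:**
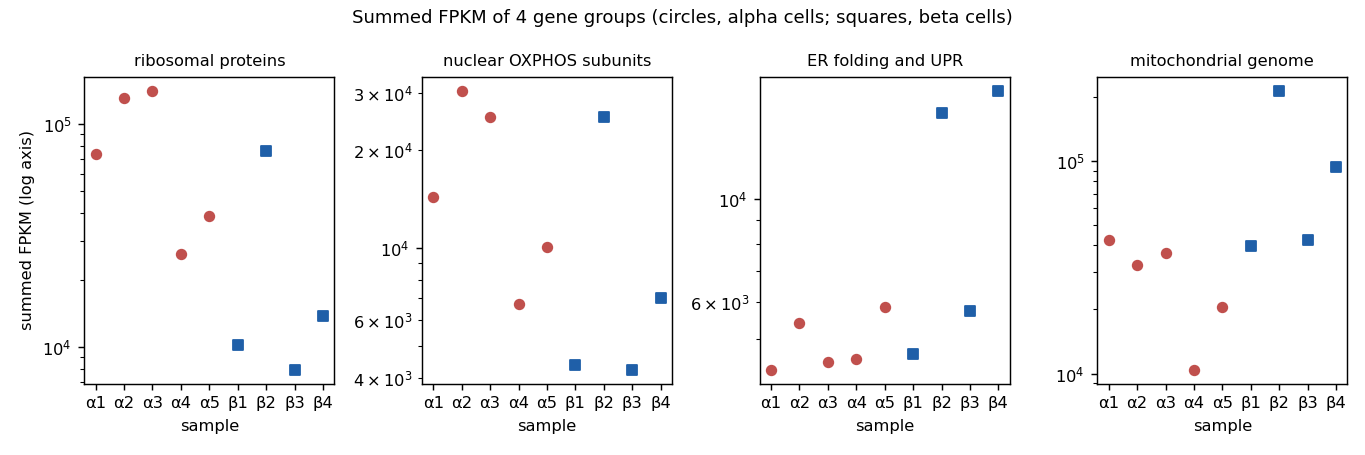
Summed FPKM (log axis, a separate scale in each panel) of 4 gene groups in each sample, with circles for alpha cells (α1 to α5) and squares for beta cells (β1 to β4). Beta replicate 2 stands apart from the other beta samples in ribosomal protein, nuclear OXPHOS and mitochondrial genes, and alpha and beta samples overlap in every panel.

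By the rule of size, the 10 genes with the largest differences in each direction, called and with no overlap between groups, were mt-Th, Ucn3, Slc2a2, Prlr, Glp1r, AC105256.1, Mir344c, Pcsk1, Iapp and Ins2 among the higher, and Ppy, Gcg, Pyy, Rbp4, Mir134, Pdk4, Gpx3, Ttr, Edn3 and Tspan12 among the lower. Edn3, which encodes endothelin 3, was at 56, 77, 41.1, 27.7 and 59.5 FPKM in alpha cells and 0.0875, 0, 0.0948 and 0.497 FPKM in beta cells (log2 difference -5.45 ± 0.48, adjusted p = 2.0e-06). Tspan12, a tetraspanin of Norrin signalling, was at 19.9, 36.3, 156, 36.5 and 62.5 FPKM in alpha cells and 0.387, 0.63, 0.0804 and 0.0922 FPKM in beta cells (log2 difference -5.27 ± 0.49, adjusted p = 3.3e-06). Of these, 4 are short transcripts in the annotation: the mitochondrial histidine tRNA mt-Th (log2 difference 7.26 ± 2.15, adjusted p = 0.047, lost without alpha replicate 1, alpha replicate 2, alpha replicate 3, beta replicate 1, beta replicate 2, beta replicate 3 and beta replicate 4), Mir134 (log2 difference -7.11 ± 1.96, adjusted p = 0.034, lost in 8 of the 9 fits that left out 1 sample), which lies within the transcript Mirg on the same strand, Mir344c (log2 difference 5.94 ± 1.45, adjusted p = 0.018) within A230057D06Rik, and AC105256.1 (log2 difference 6.00 ± 0.99, adjusted p = 0.001) opposite Gse1.

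In a fit of the 9 alpha and beta samples alone, without the delta samples, 407 genes were called. Of the 161 called genes named here, Acadvl, Acsl6, Adora2a, Adora3, Cd36, Chrm3, Col1a2, Creb3l1, Ddit3, Edem1, Ffar2, Gabbr2, Gcgr, Ghr, Gjd2, Gnai1, Gpr119, Grb10, Gria2, Hk1, Ifih1, Kcnj12, Lifr, Mafa, Mcoln3, Mnx1, Mt1, Mt2, Ndn, Ndufa13, Nr4a2, Psmb10, Psmb9, Sel1l, Sema3e, Sema4f, Slc12a7, Slc2a3, Slc39a1, Sqle, Thra, Tspan7, Vipr1 and mt-Th (44 genes) were not called there, with adjusted p from 0.051 to 0.17. Among groups whose count moved by at least 3 genes and by more than 1.5 times, that fit called 1 of 51 ER folding genes higher, 1 of 37 cyclic AMP signalling genes, 3 of 12 genes of the mitochondrial genome and 3 of 10 neurotransmitter and nucleotide GPCRs. It called 2 ribosomal protein genes lower, 2 immediate early and heat shock genes, 2 axon guidance genes, 2 G protein subunit and RGS genes, 4 potassium channels, 3 metabolite, lipid and orphan GPCRs, 3 cell adhesion genes, 4 imprinted genes, 1 antigen presentation gene, 1 nuclear receptor, and none of the ligand-gated receptors, mitochondrial carriers or nuclear oxidative phosphorylation subunits. In a fit of the samples with a ribosomal protein sum below 50000 FPKM alone, 2 of alpha cells (both male pools) and 3 of beta cells (1 female and 2 male pools) beside the delta samples of that kind, the calls of Acsl6, Atp2a2, Cd36, Chrm3, Creb3l1, Gcgr, Ghr, Gria2, Lifr, Mafa, Mcoln3, Mir134, Mir344c, Mnx1, Mt1, Mt2, Nr4a2, Psmb10, Scg2, Sel1l, Slc39a1, Slc6a19, Sqle, mt-Nd2 and mt-Nd5 (25 genes) were lost, with adjusted p from 0.052 to 0.31. By the same measure, 3 ER folding genes, 1 cyclic AMP signalling gene and 2 genes of the mitochondrial genome were higher there. Lower were 6 pan-endocrine, HNF and FOXA factors, 4 chloride channels and cotransporters, 4 cyclic AMP signalling genes, 10 of the exocytosis machinery, 6 amino acid transporters, 11 nuclear oxidative phosphorylation subunits, 11 axon guidance genes and 32 ribosomal protein genes. The calls named here on genes that overlap another called gene on the opposite strand, such as Thra beside Nr1d1, Acadvl beside Dvl2 and mt-Nd5 beside mt-Nd6, may share reads with that gene.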

How the data were processed

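RNA of sorted alpha (n = 5), beta (n = 4) and delta cells (n = 6) was amplified and sequenced by the authors as single reads of 50 nt. The deposited values are FPKM per gene, which the authors made with TopHat and Cufflinks 2.2.1 on GRCm38 (TopHat2 2.0.8 per the submitters' processing notes, 2.0.11 in the methods). FPKM are scaled to a total per library, so a few abundant RNAs lower the others. Counts were not used here. Genes with a mean above 1 FPKM in alpha or beta cells were tested on log2(FPKM + 1) with limma 3.58.1, with a trend, all 15 samples in 1 fit and Benjamini-Hochberg adjustment at 0.05. The members, the gene lists and the alternatives were chosen with earlier results of these data known. Genes named were the hormone markers, the 10 largest non-overlapping differences in each direction, up to 6 called genes and textbook members of each list, members of lists of 10 or fewer genes, and markers of other cells, with any other gene said to be chosen after its values were seen. On simulated data with 13254 genes, 42 of 100 genes with a log2 effect of 2 and 90 of 100 with an effect of 4 were recovered, and 6.38% of calls were false. The simulated noise was independent between genes, without the shifts that whole libraries showed here. The changed genes all had a mean log2(FPKM + 1) above 2. These rates therefore do not carry over to the calls reported. Replicates are pools of mice, and whether islets were shared between pools is not given in the sources used here, so p-values measure the spread between these samples. Alternatives covered scaling, filters, the pseudocount, the samples fitted, a replicate block and leaving out each sample. Some members of the lists are not reported here by name. Promoter sequences came from RefSeq and coordinates from GENCODE M21.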

Additional observations from a re-analysis of the deposited data

Results flagged for a closer look

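A sample far from the others of its cell type was found in 38 of 353 sets of alpha or beta values (10.8%), over 177 genes and 4 gene group sums. In these the gap between the extreme sample and its nearest neighbour, as a share of the range of that cell type on the log2(FPKM + 1) scale, passed Dixon's 95% critical value. In 10 of them the share was 1 because the other samples of the cell type held equal values, which gives a share of 1 whatever the size of the remaining value. Of the other 343 sets, 28 passed (8.16%), where chance alone gives about 1 of 20. The sets share libraries and are not independent.

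In alpha replicate 1 the share was 0.744 for Adra2a, 0.75 for Prlr and 0.812 for Trpm3. In alpha replicate 2 the share was 0.777 for Ffar2 and 0.717 for Rgs11. In alpha replicate 3 the share was 0.787 for Adora2a, 0.724 for Cadm1, 0.787 for Gabbr2, 0.855 for Grb10, 0.732 for Insrr, 0.775 for Slc12a7 and 0.752 for Sstr2. In alpha replicate 4 the share was 0.746 for Gnai1, 0.797 for Gng12, 0.71 for P2ry6, 0.728 for Pparg and 0.801 for Sv2b. In alpha replicate 5 the share was 1 for Mcoln3, 1 for Mir344c, 0.79 for Robo1, 1 for Slc6a19 and 0.778 for Syt9.

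In beta replicate 1 the share was 0.843 for Slc38a5. In beta replicate 2 the share was 0.972 for Fbp1, 0.978 for Fkbp1b, 0.855 for Gpx3, 0.875 for Kcnip3, 0.885 for Ndufa13, 1 for Pou3f4, 1 for Sgce and 1 for Sstr2. In beta replicate 3 the share was 1 for Col1a2 and 0.832 for Thra. In beta replicate 4 the share was 0.883 for Cadm1, 1 for Cd36, 0.851 for Insrr, 1 for Kcnj3 and 1 for Mir134.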

How the results depend on the processing

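Against 1132 calls (421 higher, 711 lower in beta cells), the fit of the 9 samples alone gave 407 (171 higher, 236 lower), median-ratio scaling 2130 (1115 higher), quantile normalization 2073 (978 higher, 1095 lower), and an adjusted p under 0.01 left 460 (189 higher, 271 lower). The pseudocount of 0.1 gave 1441, the mean above 5 FPKM 809 (of 8267 genes tested) and no filter 1021. With only the samples below 50000 summed FPKM of ribosomal protein genes, 209 were higher and 1227 lower. Leaving out 1 sample gave 650 to 1743 calls, 243 to 694 higher and 355 to 1374 lower, the extremes being without beta replicate 4 and beta replicate 2 for all calls, beta replicate 4 and beta replicate 3 for the higher, and beta replicate 1 and beta replicate 2 for the lower. The cause was not tested. Of the 161 called genes named, none changed direction under any setting. The fit of the 9 samples alone kept 117 of these calls, the samples below 50000 FPKM 136, leaving out 1 sample 148 to 157, median-ratio scaling and quantile normalization 160 each, the pseudocount of 0.1 159, no filter 154, and the ribosomal protein set as covariate 161. For genes not called, only the 16 whose difference is printed above were followed. Of these 16, Hspa5, Isl1, Neurod1 and Wfs1 were called after median-ratio scaling, Hspa5 and Isl1 after quantile normalization, Gipr and Isl1 in the samples below 50000 FPKM, mt-Co1 with that covariate and Wfs1 with the replicate block in all 15 samples. Genes named without a difference are outside this count, and Foxa2, Myt1, Prox1, Pcsk1n and Vgf among them were also called in the samples below 50000 FPKM.

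Same-numbered alpha and beta samples did not deviate together (correlations of -0.0395, 0.268, -0.155 and 0.077 for numbers 1 to 4), so the numbers were not taken as a pairing. Replicate 3 was a female pool in alpha cells (Xist 21.4 FPKM) and a male pool in beta cells (Eif2s3y 13.6 FPKM), so this number did not join the same mice. Both blocks treat such samples as matched, and the fit of all 15 samples also matches delta samples of another mouse line. The replicate block gave 1258 calls in the fit of all 15 samples, and 201 calls (98 higher, 103 lower) with alpha and beta replicates 1 to 4 paired alone, which kept 76 of the 161 named calls.

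Among named genes that were not called, some changed sign. Slc30a8 was at 0.24 with median-ratio scaling, 0.47 with quantile normalization, 0.36 with the ribosomal protein set as covariate and 0.45 in the samples below 50000 FPKM, and from -0.46 to 0.38 with 1 sample left out. Abcc8 was at -0.21 with that covariate and -1.09 in those samples, and from -0.34 to 0.31 with 1 sample left out. In those samples Cpe was at -0.92, Chga at -1.26 and Chgb at -1.12. Depth per sample is unknown, and no scaling total was implied for 7 of the 9 samples, so low values carry no interval.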

Other observations

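Outside the gene groups described above, further protein-coding genes differed, and those named here were chosen after their values were seen, each called whichever sample was left out and with no overlap between the groups. Higher in beta cells were Fkbp1b, which encodes a protein that binds the ryanodine receptor (0.269 to 7.1 FPKM in alpha cells and 49.6 to 171 in beta cells, log2 difference 4.85 ± 0.56, adjusted p = 2.4e-05), the protease Bace2 (0.482 to 2.32 FPKM in alpha cells and 29.3 to 137 in beta cells, log2 difference 4.84 ± 0.41, adjusted p = 1.2e-06), the stress response gene Nupr1 (0 to 0.576 FPKM in alpha cells and 22.8 to 59.5 in beta cells, log2 difference 4.81 ± 0.36, adjusted p = 3.5e-07), and Papss2, which makes the sulphate donor of the cell (3.21 to 13.2 FPKM in alpha cells and 132 to 393 in beta cells, log2 difference 4.76 ± 0.53, adjusted p = 1.7e-05). The neurotrophin receptor Ntrk2 (0.0726 to 2.52 FPKM in alpha cells and 9.99 to 19.2 in beta cells, log2 difference 2.96 ± 0.43, adjusted p = 2.9e-04) and Mlxipl, the glucose-responsive transcription factor ChREBP (0.596 to 11.7 FPKM in alpha cells and 14.7 to 30.1 in beta cells, log2 difference 2.77 ± 0.50, adjusted p = 0.0023), were also higher.

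Lower in beta cells was Fbp1, a gluconeogenic enzyme (13.3 to 48.8 FPKM in alpha cells and 0.0616 to 0.23 in beta cells, log2 difference -4.76 ± 0.44, adjusted p = 3.1e-06). Fev, a factor of serotonergic neurons (6.72 to 81.4 FPKM in alpha cells and 0 to 0.226 in beta cells, log2 difference -4.21 ± 0.53, adjusted p = 7.1e-05), the dystrophin gene Dmd (23.4 to 28.9 FPKM in alpha cells and 0 to 0.136 in beta cells, log2 difference -4.68 ± 0.43, adjusted p = 3.1e-06) and Tfpi, an inhibitor of coagulation (7.83 to 37.9 FPKM in alpha cells and 0 to 0.817 in beta cells, log2 difference -4.03 ± 0.45, adjusted p = 1.9e-05), were lower too.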
